A study of Mus musculus with 53 samples.

Results

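Nodal, Inhbb, Tdgf1, Lefty1 and Lefty2 encode secreted or membrane-bound parts of the Nodal and activin pathway, and they are described here in mouse embryonic stem cells with changed levels of the T-box transcription factor Tbx3. The 5 genes were taken by name, and all 5 were present among the 11647 genes of the bulk RNA table and the 23235 genes of the single-cell table. Of 3078 genomic sites bound by tagged Tbx3, 9 lay within 50 kb of the start of at least 1 of these genes.

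The 5 bulk RNA libraries, 1 per population, came from the R1 embryonic stem cell line grown in serum and LIF without feeder cells. The first 3 populations carried N/N (null for Tbx3, genotype label -/-), +/N (heterozygous, genotype label +/-) and +/+ (wild-type) alleles. The other two were wild-type R1 cells with a hairpin RNA against Tbx3 (shTbx3) or against luciferase (shLuc), a gene that mouse cells lack. Single-cell RNA came from 45 R1 cells sorted as positive for the surface antigen SSEA1 and negative for the dye DAPI, with 1 pool of such cells. The Tbx3 sites came from N/N cells that expressed the biotin ligase BirA and a Flag-Biotin-tagged Tbx3, pulled down with streptavidin, and N/N cells with BirA alone were the negative control. The sites therefore describe a tagged protein in cells labelled null for the endogenous gene. The sources used here do not say how many clones stood behind each population, or how the level of tagged Tbx3 compared with that of wild-type cells.

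Nodal is a ligand of the TGF-beta family, and Inhbb encodes the beta-B subunit that activins and inhibin B share. Nodal acts through activin receptors together with a co-receptor such as Tdgf1 (Cripto), and the receptors phosphorylate Smad2 and Smad3, which enter the nucleus with Smad4 and bind DNA with partners such as Foxh1. Lefty1 and Lefty2 are secreted inhibitors of Nodal that are themselves targets of the pathway, and in embryonic stem cells Nodal and the Lefty genes are active while the cells are undifferentiated.

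The genes lie at chr10:60880720-60888086 (Nodal, plus strand), chr1:121312042-121318825 (Inhbb, minus strand), chr9:110842114-110848662 (Tdgf1, minus strand), chr1:182865153-182868531 (Lefty1, plus strand) and chr1:182823239-182829234 (Lefty2, plus strand). Sites of tagged Tbx3 lay near 4 of the 5 genes: 3 near Nodal, 3 near Tdgf1, and 3 at the Lefty locus that Lefty1 and Lefty2 in part share. Inhbb had 0 sites within 50 kb. Across the genome 26.4% of protein-coding genes of the bulk table (2934 of 11094) had a site within 50 kb, and 1.51% (167 genes) had 3 or more. The site score is the authors' own value per site, ran between 50.01 and 791 with a median of 76.7, and serves here only to rank sites within the list. All coordinates are mm9, and positions were read 1-based.

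At Nodal, on the plus strand of chromosome 10, the site with the highest score of the 3 was chr10:60878347-60879791, which was 1445 bp long. It ended 929 bp upstream of the start, outside any annotated gene, and its score of 167.01 ranked 401 of 3078. A site of score 56.86 lay 11462 bp upstream (chr10:60868577-60869258, intergenic). The third, of score 73.13, lay 35438 bp upstream in an intron of the annotated gene X99384 and 989 bp from the start of that gene, so distance alone does not tie it to Nodal. The site beside the start thus stood above the median of the list, and the other two stood below it.

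At Tdgf1, on the minus strand of chromosome 9, the site at chr9:110849488-110850852 had the highest score of the 9 sites, 417.77, which ranked 44 of 3078. It began 826 bp upstream of the start and was 1365 bp long. The start of Lrrc2, a neighbouring gene, was 3197 bp from the same site. A site of score 88.72 (chr9:110848796-110849433, rank 1243) lay 134 bp upstream of the start, and a site of score 74.64 lay 14062 bp upstream in an intron of Lrrc2. The start of Tdgf1 was therefore flanked closely upstream by a pair of sites.

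Lefty1 and Lefty2 lie beside each other on the plus strand of chromosome 1. The site at chr1:182854754-182855376 had a score of 281.8 (rank 130) and lay 9777 bp upstream of Lefty1 and 31515 bp downstream of the start of Lefty2. A site of score 121.97 (chr1:182818484-182819346, rank 711) lay 3893 bp upstream of Lefty2 and 45807 bp upstream of Lefty1. A site of score 88.56 lay 41688 bp upstream of Lefty2 over the start of BC031781, and 83602 bp from Lefty1, outside its window. The starts of the 2 Lefty genes thus share sites, which cannot be divided between them. Inhbb, on the minus strand of chromosome 1, had its nearest sites 73967 bp downstream (score 60.66) and 75272 bp upstream (score 85.76).

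**Figure D1:**
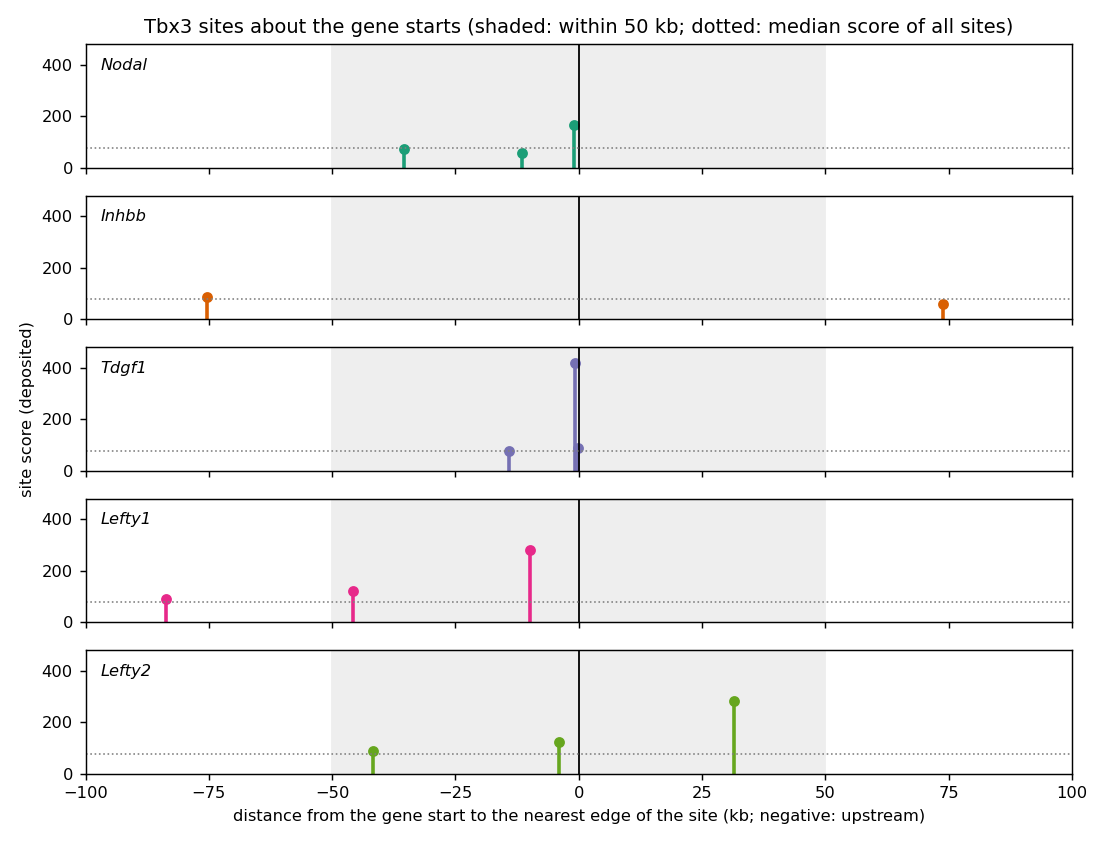
Sites of tagged Tbx3 about the starts of the 5 genes. The x axis is the distance in kb from the gene start to the nearest edge of the site (negative is upstream), the y axis is the deposited site score, the shaded band is the 50 kb window, and the dotted line is the median score of 76.7; the site beside Tdgf1 stands highest, at 417.77, and Inhbb has no site in its window.

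The middle 300 bases of 4 of these sites are shown because they are the highest-scoring site of each locus and the site nearest to Lefty2. They are from the mm9 plus strand, 5' to 3'. Capitals mark AATCCACA, a sequence that Foxh1 is known to bind, on either strand (TGTGGATT on the minus strand), and the lower-case windows hold no match to any of the motifs searched.

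Tdgf1 site chr9:110850020-110850319: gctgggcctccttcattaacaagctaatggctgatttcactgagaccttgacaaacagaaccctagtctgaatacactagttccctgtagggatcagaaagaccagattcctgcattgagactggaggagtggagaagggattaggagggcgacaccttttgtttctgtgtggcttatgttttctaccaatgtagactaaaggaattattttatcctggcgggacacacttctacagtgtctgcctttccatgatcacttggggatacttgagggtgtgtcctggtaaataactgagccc

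Nodal site chr10:60878919-60879218: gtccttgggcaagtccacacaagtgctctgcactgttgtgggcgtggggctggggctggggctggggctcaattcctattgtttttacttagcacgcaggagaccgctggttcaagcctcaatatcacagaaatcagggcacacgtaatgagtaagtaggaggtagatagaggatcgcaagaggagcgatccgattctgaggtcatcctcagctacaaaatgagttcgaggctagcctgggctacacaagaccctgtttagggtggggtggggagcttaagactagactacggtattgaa

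Lefty1 site chr1:182854915-182855214: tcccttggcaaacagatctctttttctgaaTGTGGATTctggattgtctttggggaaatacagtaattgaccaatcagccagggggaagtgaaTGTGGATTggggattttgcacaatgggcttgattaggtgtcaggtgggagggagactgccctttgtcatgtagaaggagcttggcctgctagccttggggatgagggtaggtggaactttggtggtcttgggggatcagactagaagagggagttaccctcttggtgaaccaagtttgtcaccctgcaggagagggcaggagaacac

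Lefty2 site chr1:182818765-182819064: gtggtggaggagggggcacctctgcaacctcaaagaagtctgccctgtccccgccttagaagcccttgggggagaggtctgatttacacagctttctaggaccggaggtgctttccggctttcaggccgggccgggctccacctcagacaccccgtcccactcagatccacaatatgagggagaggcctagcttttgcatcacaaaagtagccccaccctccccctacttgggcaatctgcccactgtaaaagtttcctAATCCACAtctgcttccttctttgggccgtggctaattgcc

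The AATCCACA sequence was found in both Lefty windows and in none of the other 7. The window upstream of Lefty1 held 2 copies, at chr1:182854945-182854952 and chr1:182855008-182855015, both on the minus strand. The window upstream of Lefty2 held 1 on the plus strand, at chr1:182819024-182819031, and the whole site held another at chr1:182819107-182819114. Over all 3078 sites 1.40% (43 sites) held it in the middle 300 bases. The T-box core GGTGTGA was in 0 of the 9 windows and in 10.0% of all windows.

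Other motifs of pluripotency or Smad factors were also sought on both strands, and those with no match among the 9 windows were ATTTGCAT (octamer; 6.43% of all windows), CATTGTT (Sox; 8.38%), AATACACA (another Foxh1 form; 1.95%), GTCTAGAC (Smad palindrome; 0.325%) and GGCGCC (a GC-rich Smad element; 7.28%). In whole sites, the octamer occurred in the Tdgf1 site of highest score, at chr9:110850496-110850503. A match is a description of these letters and shows nothing about the binding of a factor.

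Before the values of the 5 genes, the libraries were checked by the gene that was targeted. Tbx3 had 15.1 FPKM in N/N and 22.5 in +/N, against 44.4 in +/+ (34.0% and 50.7% of +/+), and 5.09 in shTbx3, against 13.8 in shLuc (36.9%). The library labelled null thus still held Tbx3 reads, and which region of the gene was targeted is not stated in the labels, so whether these reads come from a functional transcript is unknown. The shLuc control was also low in Tbx3, at 31.1% of +/+ (log2 -1.62). FPKM, is a level scaled to transcript length and to the fragments of the library. Dppa3, a maternal-effect gene of early embryos, had 24.7 FPKM in N/N, 8.95 in +/N and 5.32 in +/+, and 51.3 in shTbx3, against 29.1 in shLuc. The 6 stem cell markers were present in every library. In N/N, +/N, +/+, shTbx3 and shLuc, Pou5f1 measured 532, 540, 660, 1034 and 959 FPKM, and the Nanog values were 59.9, 70.4, 71.6, 280 and 230 FPKM. Other markers ran the other way between the controls: Sall4 had 31.8 FPKM in shLuc, against 83.4 in +/+, Esrrb 107, against 151, and Sox2 212, against 245. Replication is lacking throughout the bulk data, with 1 library behind each population, and so no p-value is given. The allele libraries and the hairpin libraries stood apart: on log2(FPKM + 1) values, pairs of allele libraries correlated at 0.955 to 0.982 (Pearson), the hairpin pair at 0.957 and pairs across the sets at 0.790 to 0.806. Read lengths of the bulk libraries were 26 or 100 bp, and the sources used here do not say which library had which. The allele and hairpin comparisons were therefore read within their own set, and shLuc was also set against +/+ to show the gap between the sets.

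The levels below are FPKM, and a difference is log2((a + 1)/(b + 1)) with the first-named library over the second and a pseudocount of 1. A gene entered a comparison with at least 1 FPKM in 1 of its libraries and was counted as past 2-fold at a difference of 1 or more in size. N/N and +/N were both set against the single +/+ library, so those comparisons share it. In bulk RNA, fewer cells of a type and less RNA per cell cannot be told apart.

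Inhbb was the member with the largest differences, and within each set it was lower in the libraries with less Tbx3. It had 2.96 FPKM in N/N and 4.20 in +/N, against 11.2 in +/+, and 2.18 FPKM in shTbx3, against 7.39 in shLuc. N/N and +/N were thus below +/+, and shTbx3 was below shLuc. Across the sets the levels of Inhbb did not follow those of Tbx3, since shLuc had less Tbx3 (13.8 FPKM) than N/N (15.1) or +/N (22.5) and more Inhbb. The N/N level was 26.5% of +/+ (log2 -1.62), the +/N level was 37.6% of +/+ (log2 -1.23) and the shTbx3 level was 29.5% of shLuc (log2 -1.40). Among all genes ordered by difference, Inhbb was number 76 from the lowest of 11478 in N/N, 92 of 11459 in +/N and 44 of 11342 in shTbx3. It was past 2-fold lower in each of those 3 comparisons, alone among the 5 genes. With a pseudocount of 5 the difference fell short of 2-fold in +/N (-0.81) and in shTbx3 (-0.79). In N/N against +/+, 1.92% of all genes tested were past 2-fold lower and 1.37% higher (3.28% in either direction). The shares were 1.21% lower and 0.698% higher (1.91%) in +/N against +/+, and 0.987% lower and 2.81% higher (3.80%) in shTbx3 against shLuc. Inhbb was also the least abundant of the 5 genes in every library, with 19.5%, 28.0%, 54.0%, 13.6% and 43.0% of listed genes below it in N/N, +/N, +/+, shTbx3 and shLuc. Within each set its place among all genes was therefore highest in the control.

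The summed markers of another cell type also fell in the order of Inhbb in the allele set. The 6 primitive endoderm markers, all in the table and none at 0 in any library, summed to 6.66 FPKM in N/N, 12.5 in +/N and 35.3 in +/+, and 4 of them (Gata6, Gata4, Dab2 and Lama1) were past 2-fold lower in N/N. Lama1 alone had 3.40, 6.64 and 21.3 FPKM. The other endoderm markers were low, at 4.38 FPKM or less in every library. In +/N 5 of the 6 were below +/+, and Pdgfra was higher (1.46 FPKM, against 1.12). In the hairpin set the 6 summed to 15.8 FPKM in shTbx3, against 12.3 in shLuc, with Lama1 at 13.5, against 9.43. None of the 2 that passed the filter there was past 2-fold. The 4 of 6 fibroblast markers in the table summed to 67.7 FPKM in N/N, 68.6 in +/N and 35.9 in +/+, and to 7.45 in shTbx3, against 6.06 in shLuc, where Postn was at 0. In shTbx3 the 3 of 6 primitive streak and mesoderm markers in the table (T, Eomes and Hand1) were all past 2-fold higher, summing to 46.4 FPKM, against 2.27 in shLuc, and were at 4.70, 4.27 and 3.72 FPKM in N/N, +/N and +/+. The 2 of 5 trophectoderm markers in the table (Krt7 and Eomes) summed to 13.5 FPKM in shTbx3, against 2.71 in shLuc, and to 8.69, 6.53 and 5.83 FPKM in N/N, +/N and +/+. Their part in the differences of Inhbb was not tested.

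Nodal, the ligand that names the pathway, had 25.5 FPKM in N/N and 30.7 in +/N, against 33.6 in +/+, and 27.1 in shTbx3, against 18.4 in shLuc. The allele libraries ran downward with fewer intact alleles, while the hairpin pair ran the other way. N/N was at 75.7% of +/+ (log2 -0.39) and +/N at 91.5% (log2 -0.12), and shTbx3 was at 146.8% of shLuc (log2 0.53). None was past 2-fold. The shLuc control itself was lower than +/+ for Nodal, by 0.83 on the log2 scale, which exceeds the differences within either set.

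Tdgf1, the co-receptor that Nodal needs for signalling, was the most abundant of the 5 genes in each library, with 173 FPKM in N/N and 181 in +/N, against 182 in +/+, and 107 FPKM in shTbx3, against 215 in shLuc. The allele libraries were close to one another, with a log2 difference of -0.07 in N/N. The shTbx3 level was 49.9% of shLuc, and on the log2 scale with the pseudocount the difference of -1.0 fell just short of 2-fold. It was number 114 from the lowest of all 11342 genes. In a single annotated Tdgf1 transcript of 1925 bases, 48.2% of the 26-base stretches (915 of 1900) also occurred elsewhere in the genome. Of its 100-base stretches 10.7% did, so the value depends on how the authors' counting placed shared reads.

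Lefty1 and Lefty2 ran in opposite orders across the alleles. Lefty1 had 72.9 FPKM in N/N and 63.6 in +/N, against 57.1 in +/+, and 44.1 in shTbx3, against 41.6 in shLuc. Lefty2 had 36.4 FPKM in N/N and 44.0 in +/N, against 50.8 in +/+, and 34.9 in shTbx3, against 31.3 in shLuc. The N/N level was 127.6% of +/+ for Lefty1 (log2 0.35) and 71.7% for Lefty2 (log2 -0.47). Neither was past 2-fold in any comparison. Their coding sequences, 1107 bases each, are 91.9% identical, and 27.8% of the 26-base stretches of Lefty1 and 34.6% of those of Lefty2 also occurred elsewhere (4.60% and 3.12% of 100-base stretches). Reads shared by the pair could be divided between them unevenly without a trace in the table, so their opposite orders are uncertain. Nodal and Inhbb had 0.773% and 0.0473% of such 26-base stretches, and 0 of their 100-base stretches.

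**Figure D2:**
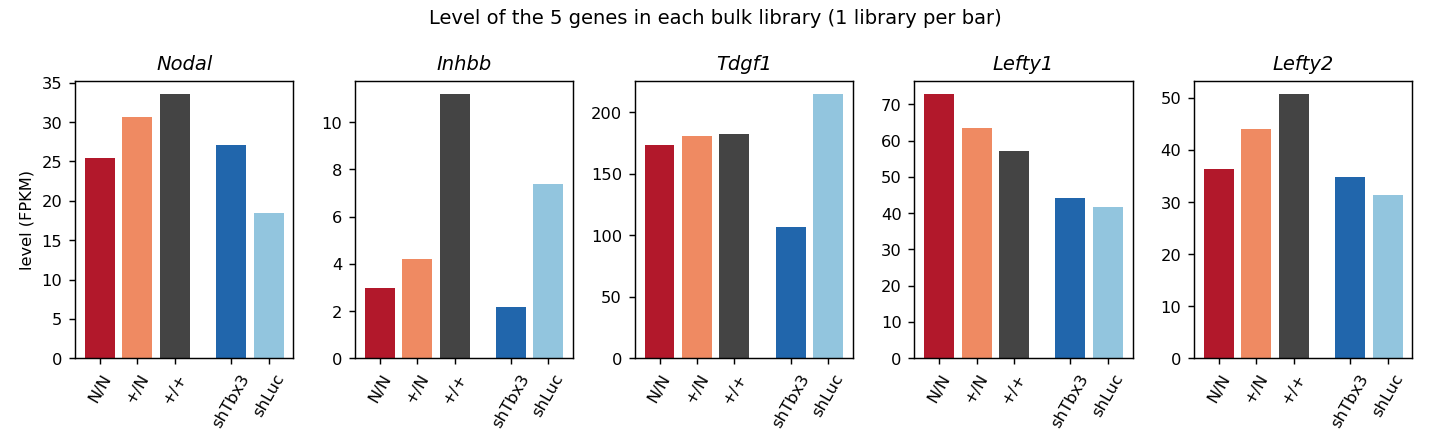
Level of each of the 5 genes in FPKM on the y axis, with a panel and scale for each gene and 1 bar for each of the 5 libraries, in the order N/N, +/N, +/+, shTbx3 and shLuc. The bars start at 0 and have no error, since each is 1 library; Inhbb at 2.96, 4.20 and 2.18 FPKM in N/N, +/N and shTbx3 lies below 11.2 in +/+ and 7.39 in shLuc.

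Comparing N/N with +/N, none of the 5 genes was past 2-fold, against 0.625% of all 11362 genes (0.308% lower and 0.317% higher). The differences were -0.26 for Nodal, -0.39 for Inhbb, -0.06 for Tdgf1, 0.19 for Lefty1 and -0.27 for Lefty2 on the log2 scale. For Inhbb this difference was smaller than that of either library to +/+.

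The median gene at 5 FPKM or more in both libraries lay at -0.12 in +/N against +/+ and at 0.16 in shTbx3 against shLuc. Relative to it, Inhbb was at -1.11 in +/N and -1.56 in shTbx3. Tdgf1 in shTbx3 was at -1.16, past 2-fold on that scale, and 0.12 in +/N. Nodal was at -0.01 in +/N and 0.37 in shTbx3. Lefty1 in shTbx3 turned to -0.08, against 0.08 without that step, and Lefty2 to -0.01, against 0.15, so neither has a stable direction there.

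Over the 5 genes the median difference was -0.39 in N/N against +/+ (-0.03 over all genes tested), -0.12 in +/N (-0.10), -0.26 in N/N against +/N (0.07) and 0.08 in shTbx3 against shLuc (0.14). In shLuc against +/+ it was -0.54 (0.01), and 0 of the 5 were past 2-fold, against 11.6% of all 11568 genes (5.88% lower and 5.68% higher). The single values in shLuc against +/+ were -0.83 for Nodal, -0.68 for Lefty2, -0.54 for Inhbb, -0.45 for Lefty1 and 0.24 for Tdgf1. For Nodal, Lefty1 and Lefty2 this gap between control libraries was larger than any difference within the allele or hairpin set, and for Inhbb it was smaller than those of N/N, +/N and shTbx3.

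**Figure D3:**
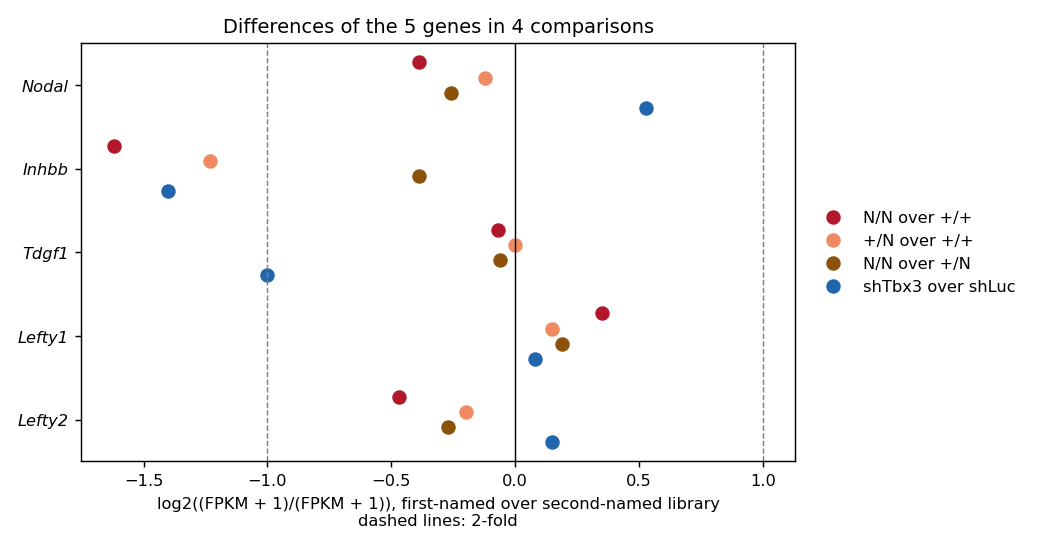
Differences of the 5 genes in 4 comparisons, with log2((FPKM + 1)/(FPKM + 1)) of the first-named over the second-named library on the x axis and genes down the page; points are single differences and have no error. Inhbb is beyond the dashed 2-fold line on the left in N/N over +/+ (-1.62), +/N over +/+ (-1.23) and shTbx3 over shLuc (-1.40), and Tdgf1 in shTbx3 is at the line (-1.0).

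The rest of the pathway was read from 44 genes in 8 lists by role, chosen with earlier results of these data known, and 32 of them were in the bulk table. In N/N against +/+, 1 was past 2-fold higher and 1 lower. The higher was Fstl3, a secreted antagonist that binds activin, with 9.85 FPKM in N/N, against 3.17 in +/+ (log2 1.38), and the lower was Inhbb. Of the 32 genes, 13 lay above 0 and 19 below it, and their median was -0.06. In +/N against +/+, Inhbb alone was past 2-fold (median -0.07), and in N/N against +/N none was (median -0.01). The 5 ligands of the table lay below 0 in each of those 3 comparisons, which share their libraries in pairs. All 5 also lay below 0 between the controls, in shLuc against +/+, where 49.2% of all genes did. Their median there was -0.51, beside -0.41 in N/N against +/+ and -0.34 in +/N against +/+. Over all genes tested, 54.0% lay below 0 in N/N against +/+, 65.0% in +/N against +/+ and 31.9% in N/N against +/N.

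In shTbx3 against shLuc, 2 pathway genes were past 2-fold higher and Inhbb was past 2-fold lower. The higher were Fst (follistatin, which binds activin), with 3.85 FPKM in shTbx3, against 0.403 in shLuc, and Eomes, a T-box target of the pathway, with 4.68 FPKM in shTbx3, against 1.25 in shLuc. Both are below 5 FPKM, and they are named after their values were seen. In all, 26 of the 32 lay above 0 and 6 below it, with a median of 0.29, beside 0.14 over all genes, of which 64.5% lay above 0. With the median difference set to 0, 19 of the 32 lay above 0 and 13 below it. Among the ligands, 4 of the 5 lay above 0. The other ligand of the table near Nodal in level, Gdf3, a TGF-beta ligand of embryonic stem cells, had 26.2 FPKM in N/N and 26.7 in +/N, against 32.2 in +/+, and 27.1 FPKM in shTbx3, against 22.3 in shLuc.

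No receptor or signal transducer of the lists was past 2-fold in any of the 5 comparisons. Acvr2b, a type II activin receptor and the highest of its list in +/+, had 20 FPKM in N/N and 18 in +/N, against 17.1 in +/+, and 18.1 in shTbx3, against 10.9 in shLuc. Foxh1, the DNA-binding partner of the Smads and the highest of the transducers, had 30.4 FPKM in N/N and 27 in +/N, against 27.6 in +/+, and 34.6 in shTbx3, against 21.1 in shLuc. Pcsk6, a convertase that processes Nodal precursors, had 10.2 FPKM in N/N and 13.3 in +/N, against 20.2 in +/+, and 11.0 in shTbx3, against 13.2 in shLuc. Pcsk6 was also short of 2-fold in every comparison.

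Among the intracellular inhibitors, Drap1, which binds Foxh1, was the highest of its list in +/+ (91.1 FPKM in N/N and 71.7 in +/N, against 83 in +/+, and 98.0 in shTbx3, against 66 in shLuc). Smad7, an inhibitory Smad and the highest of the target list, had 19.4 FPKM in N/N and 23.9 in +/N, against 35.3 in +/+, and 11.8 in shTbx3, against 9.37 in shLuc. In shLuc against +/+ it was past 2-fold lower (-1.81), as was Furin, another convertase (4.32 FPKM in shLuc, against 12.3 in +/+, log2 -1.32). The allele and hairpin sets thus differ in Smad7 more than Smad7 differs within either set.

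**Figure D4:**
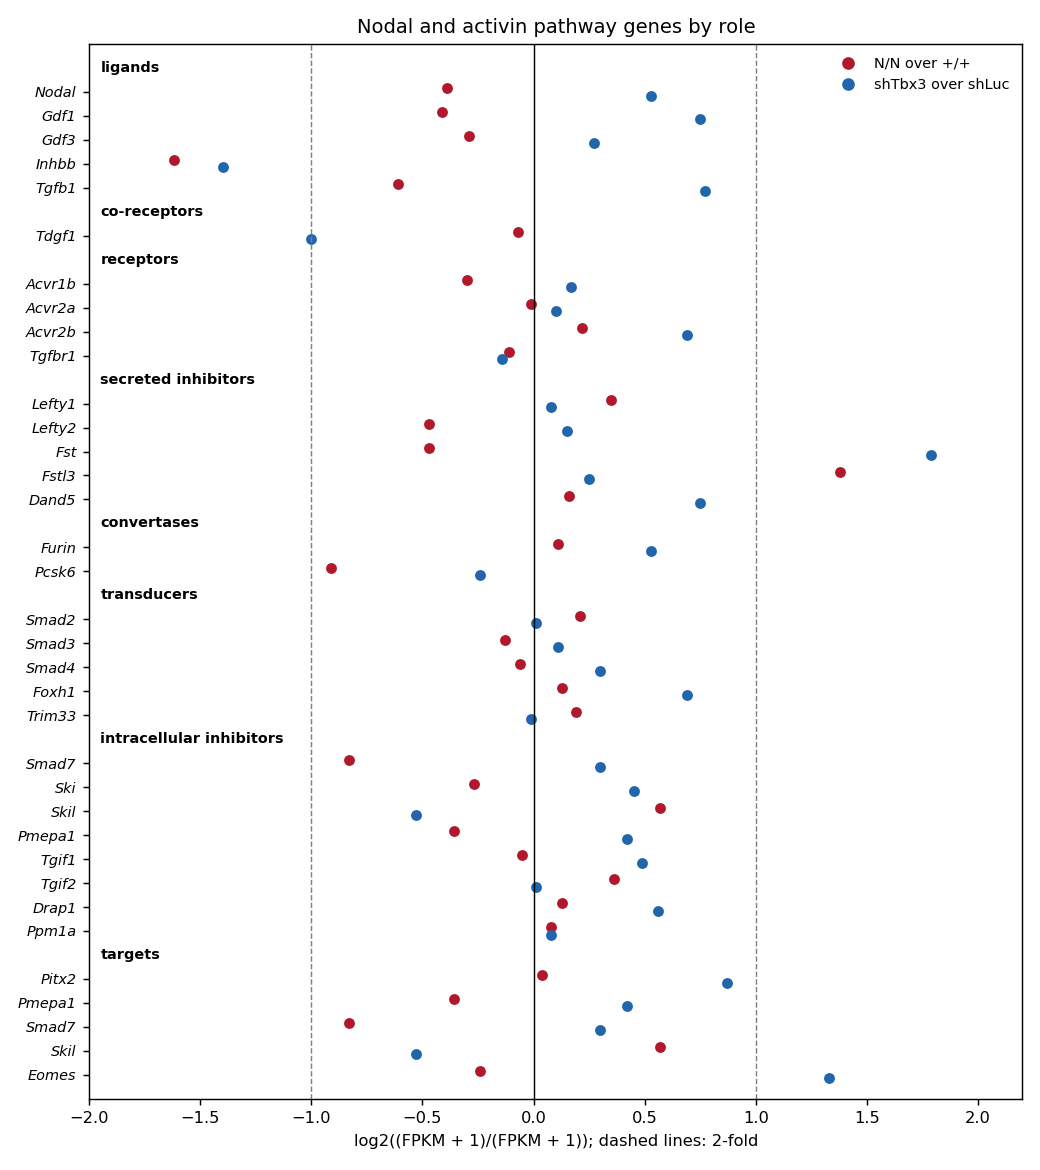
The 32 pathway genes of the bulk table by role, with log2((FPKM + 1)/(FPKM + 1)) on the x axis; Pmepa1, Smad7 and Skil are in 2 lists and are drawn in both. Points for N/N over +/+ and for shTbx3 over shLuc show 2 genes past 2-fold in N/N (Fstl3 and Inhbb) and 3 in shTbx3 (Fst, Eomes and Inhbb); Tdgf1 in shTbx3 lies at the line.

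The single-cell table adds how often each gene was seen in a cell. Tdgf1 reached 1 FPKM in 42 of 45 cells (93.3%, with a 95% interval of 81.7% to 98.6% by the exact Clopper-Pearson method), with a median of 344 FPKM and a highest value of 1432, against 308 in the pool. The other 4 genes were in few cells. Lefty2 was in 10 (22.2%, 11.2% to 37.1%), Inhbb in 8 (17.8%, 8.0% to 32.1%), Nodal in 3 (6.67%, 1.40% to 18.3%) and Lefty1 in 2 (4.44%, 0.543% to 15.1%). The intervals cover counting error only. Of the 23235 listed genes, 3061 besides Tdgf1 reached 1 FPKM in at least 25% of cells. A low share was thus common among all genes.

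The pool values of Nodal, Inhbb and Lefty1 were far above the means of the cells. Nodal averaged 0.519 FPKM over the cells, against 33.2 in the pool, Inhbb 1.04, against 35.4, and Lefty1 1.71, against 65.3. Lefty2 averaged 37.7, against 48.9, and Tdgf1 449, against 308. Tdgf1 and Lefty2 were thus within 1.5-fold of the pool and the other three were not. For Lefty2 that mean joined 71.1 FPKM over the first 23 cell columns and 2.78 over the last 22. For Tdgf1 the same means were 456 and 441 FPKM. Cells and pool also differed for general markers: Pou5f1, at 1370 FPKM in the pool, reached 1 FPKM in 11 of 45 cells, and Sall4 averaged 3337 FPKM in the cells, against 72.4 in the pool. An exact 0 in this table can be a failed estimate, since Gapdh, which nearly every cell uses, is listed at 0 in 28 of 45 cells and at 2.65 FPKM in the pool. A share of cells with a gene is thus a share with a listed value, not a share that expresses it.

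The low values fell on whole multiples of the value of 1 fragment in each cell, within a tolerance of 0.1 fragment, which gives the fragments behind each value. The Nodal cells were cell 63 at 11.3 FPKM (98 fragments), cell 23 at 8.97 (99) and cell 74 at 1.28 (4). The Inhbb cells were cell 57 at 20.7 FPKM (451 fragments), cell 80 at 8.62 (185), cell 64 at 6.38 (121), cell 18 at 4.11 (54), cell 16 at 2.04 (35), cell 87 at 1.73 (24), cell 4 at 1.24 (19) and cell 78 at 1.05 (8). The Lefty1 cells were cell 69 at 73.1 FPKM (370 fragments) and cell 73 at 3.40 (25). Several of these values rest on few fragments, and without molecular identifiers the fragments of a cell are not independent molecules.

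Among cells at 1 FPKM or more, Lefty2 ran from 1.10 to 863 FPKM. Its cells were cell 63 at 863 FPKM (8934 fragments), cell 73 at 382 (4539), cell 24 at 336 (3379), cell 62 at 46.3 (472), cell 68 at 27.3 (149), cell 53 at 19.4 (45), cell 20 at 11.1 (47), cell 49 at 2.58 (3), cell 18 at 2.19 (16) and cell 69 at 1.10 (9). The highest cell held 50.8% of the summed Lefty2 FPKM, 48.4% of Nodal, 44.4% of Inhbb, 95% of Lefty1 and 7.09% of Tdgf1. For 4 of the 5 genes 1 cell therefore held 44.4% or more of the sum, and a mean over cells rested on few cells.

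The combinations show what was seen together. Tdgf1 was the only one of the 5 at 1 FPKM or more in 24 cells, with Inhbb in 7, with Lefty2 in 6 and with both Lefty genes in 2 (cells 69 and 73). Inhbb and Lefty2 were seen together with Tdgf1 in 1 cell (cell 18). Nodal and Inhbb were together in 0 of 11 cells that had either. Both cells with Lefty1 also had Lefty2, and 1 cell (cell 63) had Nodal, Tdgf1 and Lefty2. In cell 73 Lefty1 had 25 fragments beside 4539 of Lefty2, and in cell 69 Lefty2 had 9 beside 370 of Lefty1. With 4.60% of the 100-base stretches of Lefty1 and 3.12% of those of Lefty2 also found elsewhere in the genome, the smaller value of each pair is uncertain, and the part of shared reads in their co-occurrence was not tested. No cell had more than 3 of the 5. These counts are of few cells and have no test.

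Across the 45 cells the Spearman correlation of Lefty1 with Lefty2 was 0.42 (Pearson 0.15), under the same limit of shared reads, and the pairs of the other genes lay at -0.22 to 0.25. The 5 genes correlated with relative depth at 0.22 to 0.30. With Tbx3 their Spearman correlation was -0.13 to 0.15, and with Dppa3 it was -0.06 to 0.31. They are descriptions, since all cells share 1 sort and chip. Those of Nodal, Inhbb and Lefty1 rest on few cells with any fragment (9, 14 and 4). Lefty2 had a fragment in 26 cells, 10 of them at 1 to 3 fragments, and Tdgf1 in 44.

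Only Tdgf1 was in enough cells (25% or more) for a search of genes with a like pattern. Of 3061 genes in at least 25% of cells, Slc3a2, an amino acid transporter chain, had the highest Spearman correlation with Tdgf1 at 0.56, then Ccdc58 at 0.55 and Cnn3, a calponin, at 0.47, over 45 cells. By Pearson correlation 1 of these 3 stayed in the top 3, led by Cct5 at 0.60. Of all the genes 97.0% had a correlation of 0.3 or less with Tdgf1. The named genes are the highest of 3061 values. Whether they exceed what such a search yields by itself was not tested, nor was the part of depth (0.29 with Tdgf1).

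**Figure D5:**
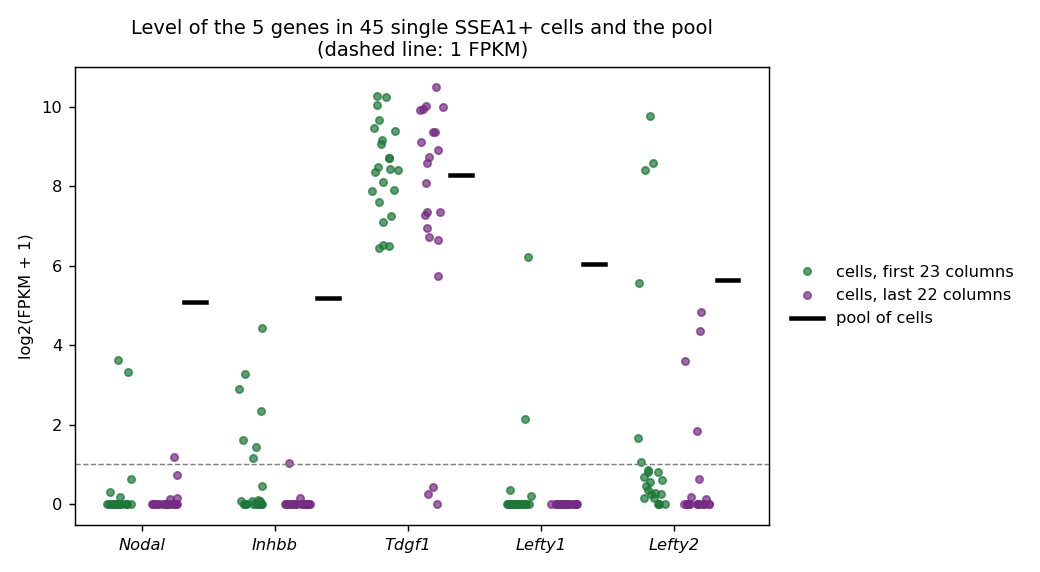
The 5 genes in 45 single SSEA1-sorted cells and the pool, with log2(FPKM + 1) on the y axis. Each point is 1 cell, coloured by the first 23 or the last 22 columns of the table, the black bar is the pool and the dashed line is 1 FPKM; Tdgf1 is above the line in 42 cells, and the others in 2 to 10.

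Depth differed between the cells in the order of the table's columns. Relative depth, read from the fragment steps, ran from 0.845 to 1.648 (median 1.256) in the first 23 columns and from 0.145 to 1.513 (median 0.647) in the last 22. Tdgf1 was in 23 of the first 23 cells and in 19 of the last 22 (100% and 86.4%), Inhbb in 7 and 1 (30.4% and 4.55%), Lefty2 in 6 and 4 (26.1% and 18.2%), Nodal in 2 and 1 and Lefty1 in 2 and 0. The last 22 columns had both the lower median depth and the low share of Inhbb, and the part of depth in it was not tested. Within them the Inhbb fragments were in cells 15 and 78, at relative depths of 0.618 and 0.527. The deepest cells there, 2, 3 and 59 (1.329, 1.513 and 1.000), were at 0. A fragment of Inhbb was worth 0.0695 FPKM at the median depth of all 45 cells, and more in shallower cells (0.112 FPKM in cell 15).

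Of the 44 pathway genes all were in the single-cell table, and 15 were at 1 FPKM or more in no cell. Skil, an intracellular inhibitor, was in 45 of 45 cells, while Gdf3 was in 20 and Smad7 in 14. The median pathway gene was in 2 cells. The same figures over all 23235 listed genes were not computed. The median cell had 4279 of those genes above 0 FPKM, so these counts show no trait particular to the pathway. Inhba, which encodes the other activin beta subunit, was not among the genes of the bulk table and was listed at 0 in the pool and in all 45 cells. Inha, the inhibin alpha subunit with which the beta-B subunit forms inhibin B, was not in the bulk table either and had 1.28 FPKM in the pool and 1 FPKM or more in 1 cell. Of the other cell types, 5 of 6 primitive endoderm markers (Gata6, Gata4, Sox17, Dab2 and Pdgfra) were at 0 in every cell. So were 5 of 6 fibroblast markers (all but Thy1). Pathway genes with higher pool values, Acvr1b (14.7 FPKM) and Tgfb1 (7.31), were also at 0 in all 45 cells. A 0 in every cell therefore does not show that a cell type was absent. Lama1 reached 1 FPKM in 3 cells (highest 52.8) and Thy1 in 1 (9.36). In the pool all 6 markers of each list summed to 16.3 and 9.18 FPKM, with Lama1 at 14.8 and Thy1 at 7.91. At 0 in every cell were 4 of 6 primitive streak and mesoderm markers and 2 of 5 trophectoderm markers. The highest sums of these 2 lists in a cell were 339 and 354 FPKM, where Mixl1 reached 339 and Krt7 354.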

How the data were processed

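RNA was measured in 5 bulk libraries, 45 single cells and 1 pool, and tagged Tbx3 by chromatin precipitation. The authors deposited bulk FPKM values made with TopHat, Cufflinks and Cuffdiff, and single-cell FPKM values made with TopHat and Cuffnorm, on mm9, per the submitters' processing notes. These tables were scaled separately, so levels are not compared between them. A score per site is in the list the authors deposited. The processing notes name Bowtie 1.0 and HOMER for these samples, without saying which tool wrote the score. Bulk libraries were read as single reads of 26 or 100 bp and cells at 100 bp, with about 24 libraries mixed, per the labels. Bulk depth is not given, and the low bulk values gave no whole-read steps, so its precision is unknown. In FPKM, shared reads of similar genes may be split between copies, and a gene that takes more of a library lowers the others.

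Bulk differences were log2((a + 1)/(b + 1)) for genes that reached 1 FPKM in at least 1 of the 2 libraries, with no test since each group has 1 library. A cell counted as having a gene at 1 FPKM, and shares of cells carry exact Clopper-Pearson intervals (scipy 1.17.1). No doublet step was run. Sites were placed within 50 kb of starts in the mm9 annotation, and motifs were searched with pysam 0.24.0 in 300 bases. The members and gene lists were chosen with earlier results of these data known. Named are the 5 genes, Tbx3, Dppa3, Pou5f1 and Nanog, pathway genes at 5 FPKM or more and past 2-fold, the highest of each list in +/+, and for likeness the 3 genes of highest Spearman correlation. Sox2, Sall4, Esrrb and other markers, Gdf3, Skil, Fst, Eomes, Inhba, Inha and Gapdh were named after their values were seen. Alternatives were pseudocounts of 0.1 and 5, a 1.5-fold threshold, a 5 FPKM filter, scalings, windows of 20 and 100 kb, and other minimums for cells.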

Additional observations from a re-analysis of the deposited data

Results flagged for a closer look

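Nodal and Lefty2 had differences of opposite sign in the allele and the hairpin comparison, and for Lefty2 the sign in the hairpin pair depends on the scaling. Nodal was at log2 -0.39 in N/N against +/+ and at 0.53 in shTbx3 against shLuc, a gap of -0.92. Lefty2 was at -0.47 in N/N against +/+ and at 0.15 in shTbx3 against shLuc, a gap of -0.62. With the median difference set to 0 or with rescaling, Lefty2 in shTbx3 against shLuc was at -0.01 and -0.05, so an opposite direction is not borne out for it. Each direction rests on 1 library against 1, and the difference between the comparisons was not tested.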

How the results depend on the processing

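Inhbb stayed past 2-fold lower in N/N under every alternative run (-1.88 to -1.02), and with a pseudocount of 5 it fell short of 2-fold in +/N (-0.81) and in shTbx3 (-0.79). That setting left 0 of the 5 genes past 2-fold in +/N and in shTbx3, and 1, 0, 0 and 1 pathway genes in N/N, +/N, shTbx3 and shLuc. A pseudocount of 0.1 gave 2 of the 5 genes in shTbx3, and 2, 6 and 5 pathway genes in +/N, shTbx3 and shLuc. A 1.5-fold threshold gave 2 of the 5 genes in shTbx3 and 2 in shLuc, and 5, 2, 10 and 10 pathway genes in N/N, +/N, shTbx3 and shLuc. With the median difference set to 0, 2 of the 5 genes passed in shTbx3, and 2 and 4 pathway genes in +/N and shLuc. Rescaling without small RNA genes gave 2 of the 5 genes in shTbx3 (Tdgf1 at -1.21), 1 in shLuc (Nodal at -1.03) and 7 pathway genes in shLuc. A 5 FPKM filter left 1 pathway gene in shTbx3, and gave no value for Inhbb in N/N against +/N. Here N/N, +/N and shLuc are set against +/+, and shTbx3 against shLuc. The median setting and the rescaling turned the sign of Tdgf1 in +/N (0.12 and 0.12), Lefty1 in shTbx3 (-0.08 and -0.13) and Lefty2 in shTbx3 (-0.01 and -0.05). The cause was not tested.

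The share of cells was 20% for Nodal and 57.8% for Lefty2 when any value above 0 counted, and 2.22% for Inhbb at a minimum of 10 FPKM. Splits by column were chosen after seeing the data: the last 22 columns gave 4.55% for Inhbb and 0% for Lefty1, and the first 23 gave 100% for Tdgf1. No paired analysis was possible because each bulk group has 1 library. With 1 library per group and unknown bulk depth, small differences such as those of Nodal and the Lefty genes cannot be told from library-to-library variation.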
